A study of Homo sapiens with 4 samples.

Results

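The long noncoding RNAs (lncRNAs) that host small nucleolar RNAs (snoRNAs) were followed through a pull-down of RNA with a biotin-carrying microRNA. The set held 10 genes, SNHG1, SNHG3, SNHG5, SNHG6, SNHG7, SNHG8, SNHG12, SNHG15, SNHG16 and GAS5, of 60554 genes in the count table. They were matched by position on GRCh38, and all 10 exceeded the minimum mean normalised count of 50 that 12662 genes met. The set was picked because SNHG6 was high on the control beads and low in the control input, so the control bead ratio of SNHG6 is a description and not a result. The comparisons that share a control library with that ratio are descriptions for SNHG6 too. The ratio of the miR-491-5p beads to their input has no library in common with it.

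A snoRNA host gene makes a spliced RNA whose introns hold the snoRNAs. After splicing the intron is trimmed to the snoRNA, which guides ribose methylation (box C/D class) or pseudouridylation (box H/ACA class) of ribosomal and spliceosomal RNA. In the genes studied here the exons encode no long protein. Several of the spliced host RNAs, GAS5 and SNHG1 among them, start with a run of pyrimidines as ribosomal protein mRNAs do, are bound by ribosomes and are degraded by nonsense-mediated decay (NMD). In cancer cells SNHG and GAS5 RNAs are often discussed as RNAs that bind microRNAs.

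RNA was taken from IGROV1-R10, a human ovarian cancer cell line transfected at 60 nM with a miRNA duplex. There were 4 groups with 1 library each, namely the miR-491-5p pull-down, the miR-491-5p input, the control pull-down and the control input, with a biotinylated miRNA of Caenorhabditis elegans as control (cel-miR-65 in the design text). All 4 groups came from transfected cells, so none shows untransfected cells. Nuclei and debris were spun out of the lysate, 10% of it became the input, and streptavidin beads took the remainder for 4 h and were washed 5 times. Each library pooled the RNA of 3 experiments, so no spread between replicates can be had, and no p-value is given anywhere.

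Total gene counts per library ranged between 47679684 (control input) and 62582646 (control pull-down). Counts divided by size factors are called normalised counts, values on beads are those of the pull-down libraries, and each log2 ratio has 1 added to both normalised counts. Intervals are 95% intervals of the counting error, which leave out all variation between experiments. The labels name no molecular identifiers for the reads, so the intervals may be too narrow even for that. Higher or lower by 2-fold means a ratio of at least 2-fold whose interval excluded 0. With scaling by total counts the all-gene median was 0.32 higher for miR-491-5p beads and 0.14 higher for control beads, so bead values are also given relative to the median of all genes, which was -0.15 for both. The 9 listed ovarian carcinoma markers summed to 86643 normalised counts on miR-491-5p beads and 120540 in their input. They summed to 96324 on control beads and 153110 in the control input, and none was at 0. KRT8 and KRT18 had the highest counts of them, and MSLN, at 9 to 14 reads, did not meet the count minimum. The 10 listed hepatocyte markers summed to between 20.4 and 30.7 in the other 3 libraries but to 3623 in the control input, where none of them was at 0. FGA and ORM1 were at 0 in each of the other 3 libraries. The part of these RNAs in the ratios that use the control input was not tested. The input ratio was 1.12 for SNHG6 and between -0.15 and 0.06 for the other 9 host genes.

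The bait is shown first, since the comparisons turn on it. The mature miRNA, from RefSeq on GRCh38.p14 at chr9:20716120-20716141 on the plus strand, has 22 bases, and capitals mark its seed (bases 2 to 8), the part that pairs with targets.
hsa-miR-491-5p: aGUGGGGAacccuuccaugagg

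The RefSeq promoter table held 8 of the 10 host genes, all but SNHG6 and SNHG15. In 4 of the 8 the letters TATAA stood within the 50 bases before the start on the gene's strand, and in none of the 8 on the other strand. Of all 35116 promoters in the table, 4.74% held these letters there on the gene's strand and 2.63% on the other. The motif was chosen after the sequences had been read, and a match is no proof of use. The stretches are shown because they carry this shared feature, from 50 bases before the start to 20 bases from the start on, with TATAA in capitals. SNHG5 lies at chr6:85678714-85678783 (minus strand), SNHG7 at chr9:136728165-136728234 (minus), SNHG8 at chr4:118278712-118278781 (plus) and SNHG12 at chr1:28581854-28581923 (minus).
SNHG5: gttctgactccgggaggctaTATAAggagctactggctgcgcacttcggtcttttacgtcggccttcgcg
SNHG7: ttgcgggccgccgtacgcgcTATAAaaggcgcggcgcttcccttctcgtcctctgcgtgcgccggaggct
SNHG8: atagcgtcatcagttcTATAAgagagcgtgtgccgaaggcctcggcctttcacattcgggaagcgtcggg
SNHG12: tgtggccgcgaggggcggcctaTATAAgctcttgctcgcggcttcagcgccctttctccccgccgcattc
The motif began 30 bases before the RefSeq promoter start in SNHG5 and SNHG7, 34 in SNHG8 and 28 in SNHG12. From that start on, the unbroken run of pyrimidines was 11 bases in SNHG12, 5 in SNHG5, 4 in SNHG7, 3 in SNHG1 and 1 in SNHG8. It was 0 in GAS5, SNHG3 and SNHG16. The promoter start lay 3 bp from the 5′ end of the gene in the count table for SNHG5, 0 bp for SNHG7, 53 bp for SNHG8 and 1110 bp for SNHG12. The RefSeq gene of SNHG12 itself has the same 4446 bp span as in the count table. For GAS5 the distance was 163 bp, for SNHG3 37 bp, for SNHG1 29 bp and for SNHG16 2 bp. Where the RNAs start was not measured, so a run of 0 does not show that GAS5 RNA lacks a pyrimidine start.

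The host genes differed in how much of the gene was counted as exon, because the table merges every annotated isoform. SNHG1, on chromosome 11 from 62851988 to 62855914, had 95.6% of its span in exons, so most of its intron sequence counted as exon. SNHG15, on chromosome 7 from 44983023 to 44986961, had 92.6%. SNHG6, on chromosome 8 from 66921684 to 66926398, had 26.4% (1247 bp), and SNHG5, on chromosome 6 from 85660950 to 85678736, had 15.7%. RefSeq gives SNHG5 a span of 1727 bp at the 5′ end of these 17787 bp, and the table adds 3 exon blocks that begin 12589 bp or more from that end. Its exon length and level per kb therefore depend on the annotation. The other 6 lay between 63.7% and 83.2%. Reads that overlap more than 1 gene were left out of the counts, and strand was not used. The part of the exons that overlaps exons of another gene was 36.4% in SNHG6, 33.4% in SNHG16 and 31.4% in SNHG7, and between 1.16% in GAS5 and 15.3% in SNHG1 in the other 7. The map of exons shows these differences.

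**Figure D1:**
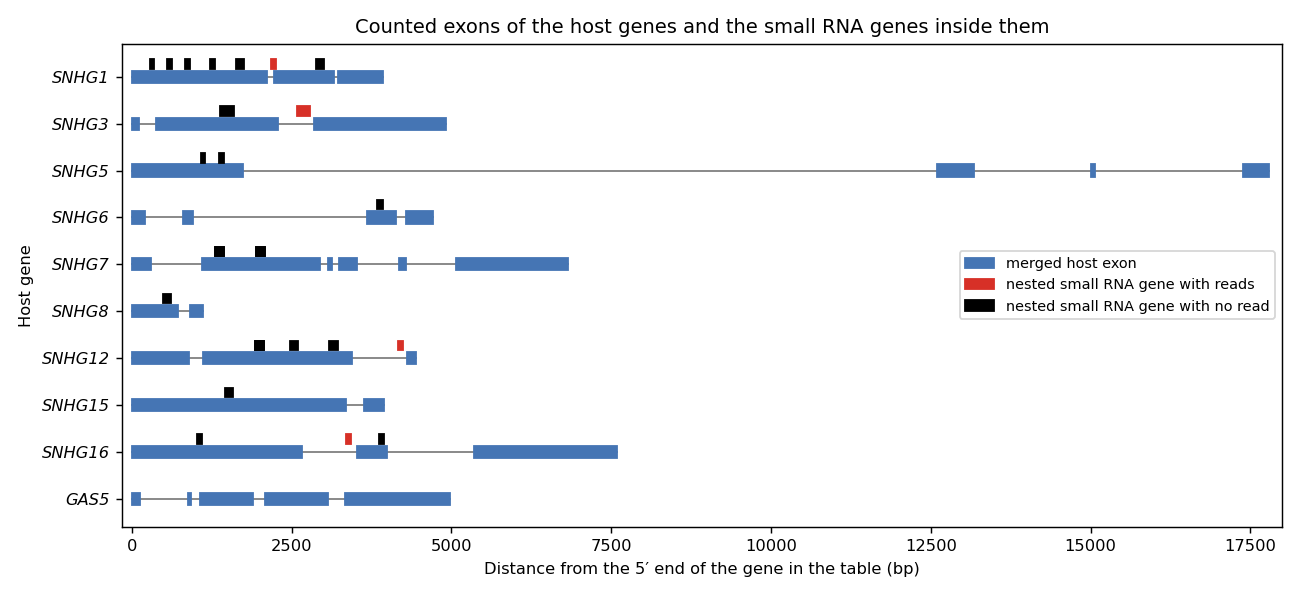
Each row is 1 host gene drawn from its 5′ end, with distance in bp on the horizontal axis. Blue boxes are the merged exons of the count table, black boxes above the line are nested small RNA genes with no read in any library, red boxes are the 4 nested genes with reads, and overlapping nested genes cover each other. All 22 nested genes without reads lie wholly on blue.

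Small RNA genes inside the hosts were almost invisible in this table. It listed 26 genes under 300 bp on the same strand inside 9 of the hosts, and none inside GAS5. Of these, 22 had no read in any of the 4 libraries, and all 22 lay wholly inside a host exon, where every read also overlaps the host. Of the 4 with reads, 3 lay outside the host's exons, and SNORD30 in SNHG1 lay partly outside. A count of 0 here thus says nothing of the level of these snoRNAs.

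Only SNORA73B (chromosome 1, 28508559 to 28508762), an H/ACA snoRNA in an intron of SNHG3 that takes part in ribosomal RNA processing, met the count minimum. It had 4840 reads on miR-491-5p beads and 385 in their input, against 5735 on control beads and 515 in theirs. Both pull-downs were far above both inputs, with log2 ratios of 3.28 (3.13 to 3.43) on the miR-491-5p beads and 2.94 (2.81 to 3.07) on the control beads. Its host did not follow. SNHG3 (chromosome 1, 28505980 to 28510892) had normalised counts of 1305 on miR-491-5p beads and 1696 in their input, against 1072 on control beads and 1623 in theirs. Its ratios were -0.38 (-0.48 to -0.28) and -0.60 (-0.71 to -0.48), and the first was -0.06 with total counts. With size factors the snoRNA and the exons of SNHG3 thus lay on opposite sides of their inputs with both miRNAs, without a replicate check. With total counts the SNHG3 interval on the miR-491-5p beads, -0.16 to 0.04, did not exclude 0.

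The remaining 3 nested snoRNAs, all box C/D, were below the minimum. SNORD30 had 43 reads on miR-491-5p beads, 10 in their input, 12 on control beads and 10 in theirs. SNORD1B in SNHG16 had 17, 1, 19 and 5 reads in the same libraries, and SNORD99 in SNHG12 had 31, 18, 21 and 20. On these counts the miR-491-5p bead ratio was 1.64 (0.67 to 2.62) for SNORD30, 2.85 (0.44 to 5.26) for SNORD1B and 0.40 (-0.43 to 1.22) for SNORD99. The control bead intervals of all 3 included 0.

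Levels between the host genes were compared per kilobase of exon. By the mean of the 4 libraries the order was SNHG6, SNHG8, GAS5, SNHG16, SNHG5, SNHG1, SNHG3, SNHG15, SNHG12 and SNHG7. The ranges over the 4 libraries overlapped between each of the first 5 and the next in that order, and between SNHG3 and SNHG15. They did not overlap between SNHG1 (1111 to 1269 normalised counts per kb) and SNHG3 (262 to 415), between SNHG15 (297 to 360) and SNHG12 (215 to 252), or between SNHG12 and SNHG7 (99.4 to 145). With only the exon length that no other gene shares, GAS5 and SNHG16 changed places and the rest of the order held. The highest library exceeded the lowest 4.65-fold in SNHG6, 2.64-fold in SNHG5 and 2.13-fold in SNHG8, and by 1.14-fold to 1.58-fold in the other 7.

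**Figure D2:**
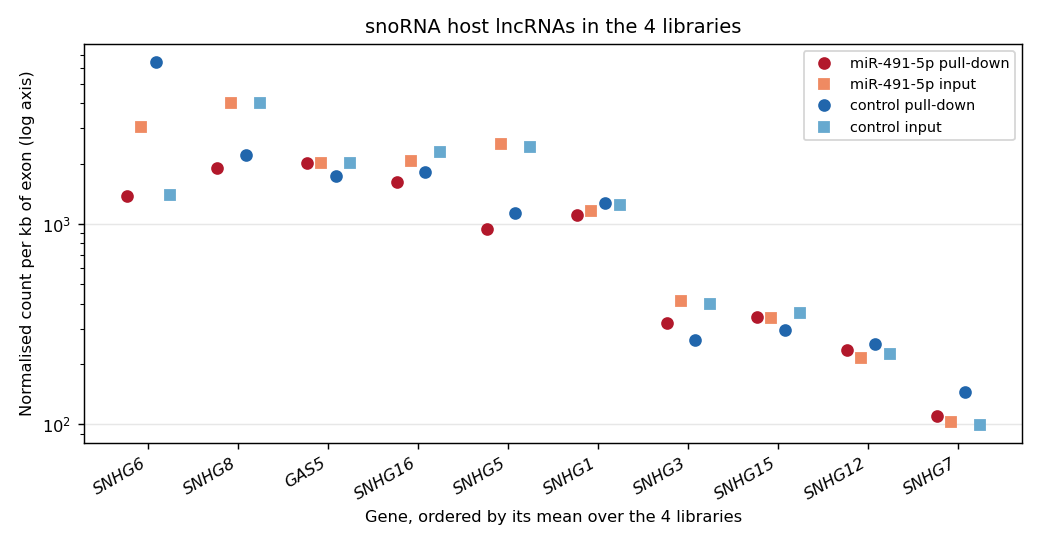
Normalised counts per kb of exon are plotted on a log axis for the 10 host genes, ordered by their mean, with circles for pull-downs, squares for inputs, red shades for miR-491-5p and blue shades for the control. SNHG6 stands out by its control pull-down at 6420.0, while SNHG8 and SNHG5 have both circles below both squares.

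SNHG6, the host of the box C/D snoRNA SNORD87, was the gene that set the choice. Its normalised count was 1721 on miR-491-5p beads and 3795 in their input, against 8006 on control beads and 1749 in theirs. The control pull-down was the highest of the 4 libraries and the miR-491-5p input the next, while its miR-491-5p pull-down and its control input were nearly level. The control bead ratio, by which it was chosen, was 2.19 (2.11 to 2.28), the 155th highest of 12662 genes. On the miR-491-5p beads the ratio was -1.14 (-1.22 to -1.06), the 342nd lowest, or -0.99 relative to the median of all genes. With total counts the miR-491-5p bead ratio was -0.82, below 0 but short of 2-fold.

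The comparisons of SNHG6 between the miRNAs reuse those libraries. Between the pull-downs its log2 ratio (miR-491-5p over control) was -2.22 (-2.28 to -2.15), the 31st lowest of all genes. Between the inputs it was 1.12 (1.03 to 1.21), the 65th highest, where the low control input that the choice used is the denominator. In RNA from many cells, more cells with an RNA and more RNA per cell cannot be told apart. The enrichment defined by the study, the pull-down ratio divided by the input ratio, was -3.33 (-3.45 to -3.22), the 9th lowest. SNHG6 was 1 of 9 genes, 0.0711% of those tested, that were at least 2-fold lower on the miR-491-5p beads and at least 2-fold higher on the control beads.

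Among the named genes whose pattern over the 4 libraries was most like that of SNHG6, by Euclidean distance between log2 values centred on each gene's mean, were RRAS2 (0.24), BCAP29 (0.35), SREK1IP1 (0.38) and DPF1 (0.40). RRAS2, a small GTPase related to RAS, had normalised counts of 15182 on miR-491-5p beads and 27015 in their input, against 66072 on control beads and 14952 in theirs. Its input ratio was 0.85, and those of BCAP29, SREK1IP1 and DPF1 were also above 0. That follows from picking these genes by their likeness to SNHG6 in the same libraries, and is no separate result. To the mean profile of the 10 host genes BRCC3, LYRM2, EFR3B and RBL2 were among the nearest, at distances of 0.02 to 0.04.

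On the miR-491-5p beads 3 of the 10 host genes were at least 2-fold below their input, where 4.96% of all genes were, and none was 2-fold above it, where 5.34% were. These were SNHG5, SNHG6 and SNHG8. SNHG5, the host of SNORD50A and SNORD50B, had normalised counts of 2645 on miR-491-5p beads and 6976 in their input, against 3174 on control beads and 6761 in theirs. Both pull-downs were below both inputs. Its ratio was -1.40 (-1.46 to -1.34) on the miR-491-5p beads, the 96th lowest of all genes, and -1.09 (-1.15 to -1.03) on the control beads.

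SNHG8 (chromosome 4, 118278709 to 118279823), the host of the H/ACA snoRNA SNORA24, behaved alike in direction. It had normalised counts of 1746 on miR-491-5p beads and 3696 in their input, against 2042 on control beads and 3720 in theirs. The ratios were -1.08 (counting SE 0.039) on the miR-491-5p beads and -0.86 (SE 0.040) on the control beads. With total counts only SNHG5 remained past 2-fold on the miR-491-5p beads, at -1.08, and SNHG8 had -0.76. Of all 12662 genes, 130 were lower there with that scaling. Relative to the median of all genes, which does not depend on the scaling, SNHG5 had -1.25 on miR-491-5p beads and -0.94 on control beads, and SNHG8 had -0.93 and -0.71.

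On the control beads 1 host gene besides SNHG6 passed 2-fold, namely SNHG5, which was lower. Over all genes 10.0% were lower there and 8.61% higher. With total counts SNHG5 had -0.95 on the control beads and no host gene was lower, where 820 of all 12662 genes were.

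**Figure D3:**
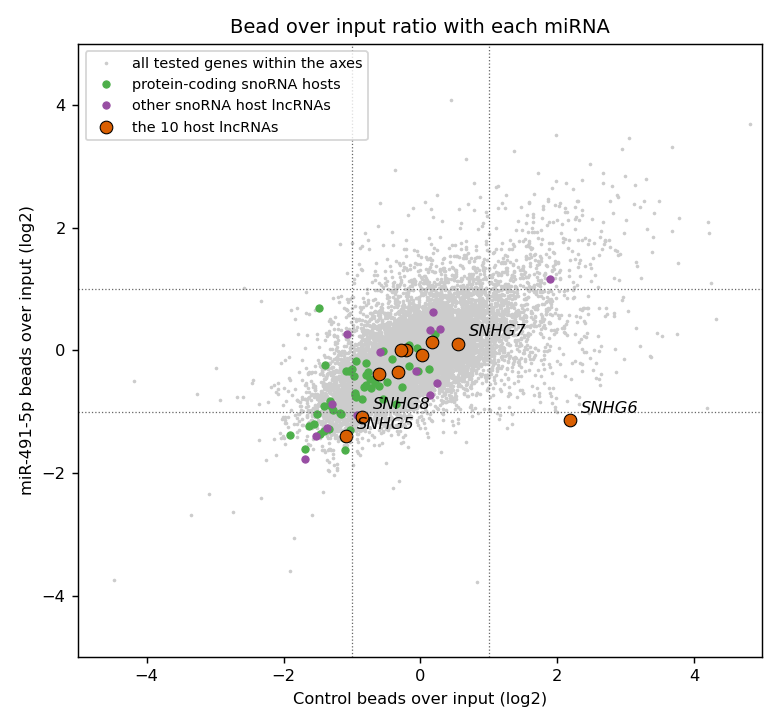
The log2 ratio of pull-down to input is plotted for the miR-491-5p beads (vertical axis) against the control beads (horizontal axis), with grey dots for all tested genes inside the axes, green for listed protein-coding snoRNA hosts, purple for other listed snoRNA host lncRNAs and orange for the 10 host genes. Dotted lines mark 2-fold. Among the 10 host genes, SNHG6 sits alone at 2.19 and -1.14, and SNHG5 and SNHG8 sit at the lower left.

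The other 7 host genes stayed within 2-fold of their inputs on both kinds of beads, which was the usual state. Of all genes, 4.96% were lower by 2-fold and 5.34% higher on the miR-491-5p beads, and 10.0% and 8.61% on the control beads. GAS5 (chromosome 1, 173863900 to 173868882), whose RNA accumulates in growth-arrested cells, had normalised counts of 7304 on miR-491-5p beads and 7322 in their input, against 6332 on control beads and 7317 in theirs. The 2 inputs and the miR-491-5p pull-down were level, and only the control pull-down was lower, with a ratio of -0.21 (-0.26 to -0.16). SNHG1, which hosts a cluster of box C/D snoRNAs, had 4172 normalised counts on miR-491-5p beads and 4376 in their input, against 4765 on control beads and 4651 in theirs. Its bead ratios were -0.07 (-0.13 to -0.01) and 0.03 (-0.03 to 0.10).

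SNHG16 (chromosome 17, 76557766 to 76565348), the host of the SNORD1 snoRNAs, had 8647 normalised counts on miR-491-5p beads and 11063 in their input, against 9722 on control beads and 12233 in theirs. It was below its input by a like amount with both miRNAs, at -0.36 and -0.33, though with total counts the first was -0.04. The gene ST6GALNAC2 on the other strand overlaps 1639 bp of its exons. SNHG15, the host of SNORA9, had ratios of 0.01 (-0.10 to 0.12) on miR-491-5p beads and -0.28 (-0.40 to -0.16) on control beads.

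The least abundant hosts were SNHG12 and SNHG7. SNHG12 (chromosome 1, 28578538 to 28582983), the host of the H/ACA snoRNAs SNORA16A, SNORA44 and SNORA61, had normalised counts of 798 on miR-491-5p beads and 726 in their input, against 853 on control beads and 756 in theirs. SNHG7 (chromosome 9, 136721366 to 136728184), the host of SNORA17A and SNORA17B, had 480.3 on miR-491-5p beads and 446 in their input, against 631 on control beads and 432 in theirs. Its control pull-down stood above the other 3 libraries, with a bead ratio of 0.55 (0.36 to 0.73) on the control beads and 0.11 (-0.07 to 0.29) on the miR-491-5p beads. The signs of the values near 0 depend on the scaling: with total counts GAS5, SNHG1 and SNHG15 had 0.32, 0.25 and 0.33 on the miR-491-5p beads.

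In the lysates themselves, before any pull-down, the host genes other than SNHG6 hardly differed. All 9 had log2 input ratios of at most 0.5 in either direction, as did 90.1% of all genes. SNHG6, whose low control input was part of the choice, was past 2-fold. None of the other 9 was, where 0.727% of all genes were higher and 0.513% lower. SNHG16 had the lowest ratio, -0.15 (-0.19 to -0.11), and SNHG3 the highest of the other 9, 0.06 (-0.04 to 0.17). GAS5 was at 0.00 (-0.05 to 0.05) and SNHG8 at -0.01 (-0.08 to 0.06). For 7 of the 10 the interval included 0.

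Between the pull-downs SNHG6, whose high control pull-down was part of the choice, was lower by 2-fold with miR-491-5p. None of the other 9 was lower, where 3.17% of all genes were, and none was higher, where 2.5% were. SNHG3 had the highest ratio, 0.28 (0.18 to 0.39), followed by SNHG15 and GAS5, both at 0.21. SNHG7 at -0.39 (-0.55 to -0.24) was the lowest after SNHG6. In the enrichment, which holds both control libraries, SNHG6 was depleted by 2-fold. None of the other 9 was depleted, against 5.32% of all genes, and none of the 10 was enriched, against 4.46%. SNHG15 had the highest enrichment, 0.29 (0.13 to 0.45), then SNHG3 at 0.22 and GAS5 at 0.21, and 6 of the 9 genes other than SNHG6 lay below 0. With total counts SNHG1, SNHG12 and SNHG16 moved above 0 (0.08, 0.14 and 0.16). The median of the 10 was -0.07 and that of all genes 0.00. With 4.46% of all genes enriched by 2-fold in these libraries, the lack of any among the 10 does not set them apart.

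**Figure D4:**
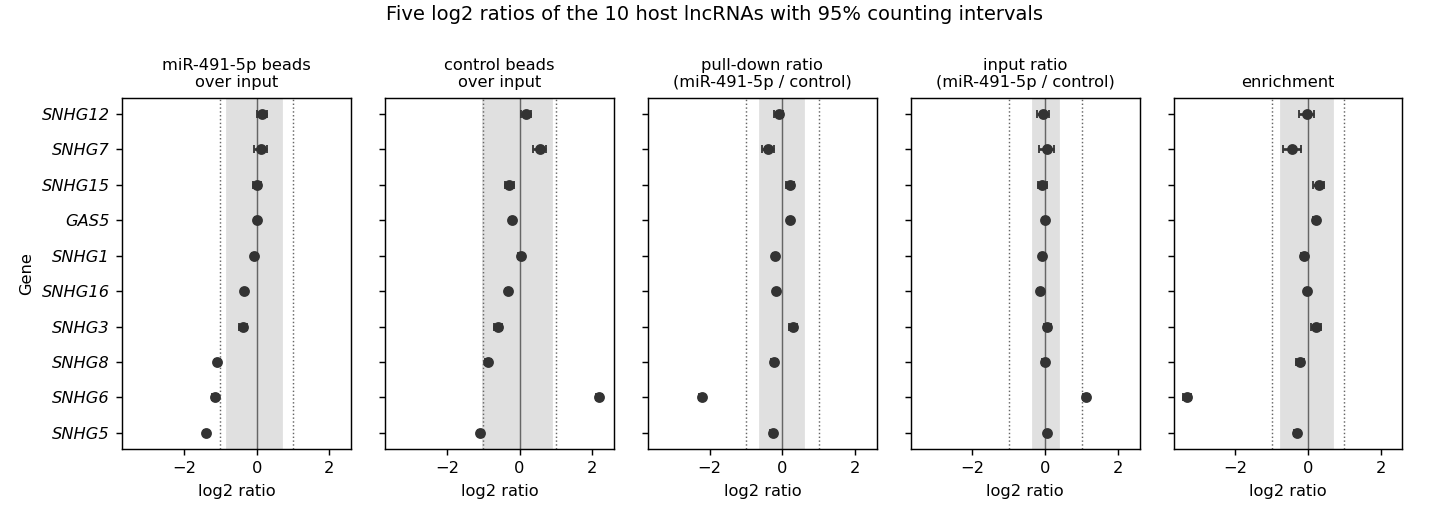
Each panel gives 1 of 5 log2 ratios for the 10 host genes, ordered by the miR-491-5p bead ratio, with points for the ratio and bars for the 95% counting interval. Grey bands span the 10th to the 90th percentile of all tested genes (-0.83 to 0.69 in the first panel) and dotted lines mark 2-fold. SNHG6 lies outside the band in all 5 panels, SNHG5 and SNHG8 lie outside it on the miR-491-5p beads, and SNHG5 also on the control beads.

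Exon length and bead ratio were set against each other as a description. Across the 10 host genes, log2 exon length and the miR-491-5p bead ratio had r = 0.69 and rho = 0.43, and on the control beads r = -0.23 and rho = 0.10. Without SNHG6, whose control value chose the set, a choice made after seeing the data, the other 9 had r = 0.60 and rho = 0.27 on the miR-491-5p beads and r = 0.52 and rho = 0.38 on the control beads. Across all 12662 genes the values were r = 0.19 and rho = 0.25 on the miR-491-5p beads and r = 0.21 and rho = 0.29 on the control beads. Genes are not independent replicates, and all points of a panel share the same libraries. SNHG8 (923 bp), SNHG6 (1247 bp) and SNHG5 (2794 bp), the 3 with the lowest miR-491-5p bead ratios, were also the 3 with the shortest exon length.

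Other snoRNA host lncRNAs were listed for comparison, and 20 of 21 were matched (all but SNHG29), of which 14 met the count minimum. On the miR-491-5p beads 4 of the 14 were at least 2-fold lower and 1 was higher, and on the control beads 5 were lower and 1 higher. Over all genes 4.96% were lower and 5.34% higher on the miR-491-5p beads, and 10.0% and 8.61% on the control beads. The medians of the 14 were -0.43 and -0.32, against -0.21 and -0.24 for the 10 host genes. The genes named next were chosen after their values were seen. SNHG9 was the lowest, at -1.78 (-2.08 to -1.48) and -1.69 (-2.01 to -1.37), and SNHG19 had -1.40 and -1.53. DANCR, a host of an H/ACA snoRNA, had 4874 normalised counts on miR-491-5p beads and 11785 in their input, against 4423 on control beads and 11370 in theirs, with ratios of -1.27 and -1.36. ZFAS1, a host of box C/D snoRNAs, had -1.06 and -0.92. SNHG30 at -1.29 and SNHG32 at -1.07 were lower on the control beads. With total counts 2 of the 14 were lower on the miR-491-5p beads and 4 on the control beads. Of all 12662 genes, 130 and 820 were lower with that scaling.

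The highest in that list was SNHG14, the long transcript of the imprinted SNRPN locus, at 1.17 (1.13 to 1.22) and 1.89 (1.84 to 1.95). SNHG32 was the only one of the 14 past 2-fold between the pull-downs, with 1835 normalised counts on miR-491-5p beads against 702 on control beads. Its pull-down ratio was 1.39, its input ratio 0.06 (-0.05 to 0.17) and its enrichment 1.33 (1.17 to 1.49). Its ratio was 0.26 on the miR-491-5p beads and -1.07 on the control beads, and the control pull-down was the lowest of its 4 libraries.

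Protein-coding snoRNA hosts, mostly ribosomal protein and translation factor genes, gave lower bead values. Of 52 listed, 49 were matched by position and tested. The gene matched to RPL30 had only 150 reads on miR-491-5p beads and 96 in their input, where RPL32 had 28299 and 51335. That match may be wrong, and its values are part of the counts and medians below. Next lowest in reads on those beads were EIF4A1, with 302 there and 220 in the input, and RPL17, with 632 and 554. Both are also part of the counts and medians, and why they were low was not tested. On the miR-491-5p beads 13 of the 49 were at least 2-fold lower, against 4.96% of all genes, and none was higher, against 5.34%. The list median there was -0.60, where the median of all genes was -0.15. On the control beads 21 were lower, against 10.0% of all genes, and none was higher, against 8.61%, with a list median of -0.96. RPS12 was the lowest on the miR-491-5p beads at -1.62. With total counts 5 and 16 were lower, and 1 was higher on the miR-491-5p beads. Of all 12662 genes, 130 were lower and 1284 higher on the miR-491-5p beads with that scaling. On the control beads 820 were lower and 1373 higher. The list medians were then -0.29 and -0.82, where those of all genes were 0.17 and -0.01.

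The partners of snoRNAs and of host RNA decay were listed too. For comparison, the shares of all genes past 2-fold were 4.96% lower and 5.34% higher on the miR-491-5p beads, and 10.0% and 8.61% on the control beads. Of 16 tested genes of snoRNP proteins, which assemble with snoRNAs, 2 were lower on the miR-491-5p beads and 6 on the control beads, with medians of -0.61 and -0.87. With total counts these were 0 and 4, with medians of -0.29 and -0.73, where 130 and 820 of all 12662 genes were lower. SNU13, which binds box C/D snoRNAs, was the highest of them on the control beads at 0.47 and had the lowest enrichment, -1.25, while RUVBL2 had the highest, 0.78. Of 15 NMD-sensitive mRNAs, none was past 2-fold on the miR-491-5p beads, with a median of -0.55, and 2 were lower and 1 higher on the control beads, with a median of -0.44. GABARAPL1 was the highest there at 1.29 and ATF4 the lowest at -1.12, and with total counts none was lower. Of 19 NMD factor genes, XRN1, the 5′ to 3′ exonuclease, was higher on both kinds of beads, at 1.08 and 1.09, and MAGOH of the exon junction complex was lower on the control beads, at -1.10, though not with total counts. The list medians were 0.00 and -0.24. The plot by gene list shows the wide overlap of the lists.

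**Figure D5:**
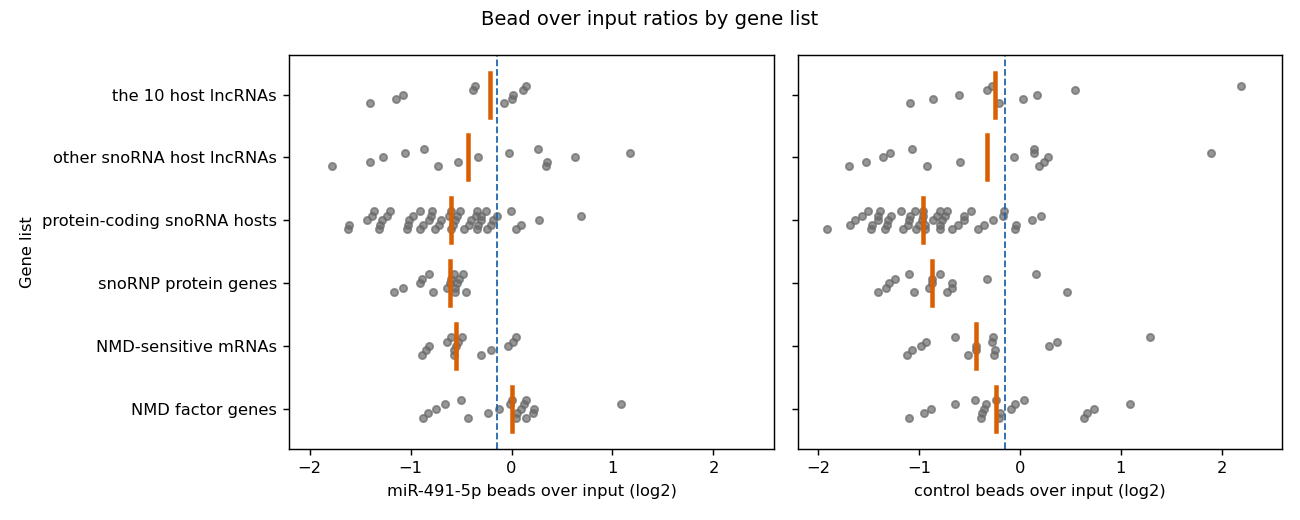
Log2 ratios of pull-down to input are plotted for 6 gene lists on the miR-491-5p beads (left) and the control beads (right). Points are genes, orange bars are list medians and the dashed blue line is the median of all genes, -0.15 in both panels. The 10 host genes spread from -1.40 to 0.14 on the left and from -1.09 to 2.19 on the right.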

How the data were processed

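The authors deposited 1 table of whole-number read counts per gene for the 4 libraries, without normalization. Per the file headers, reads were counted with featureCounts 1.5.0-p1 over GENCODE release 24 exons on hg38, without strand, without reads marked as duplicates, and with no option to count reads that overlap several genes or map to several places. STAR, GRCh38 and DESeq2 1.10.1 are further names given in the submitters' processing notes. The exon length per gene is the deposited column of the same table (other unit: bases). Sample titles gave the groups, and column names gave the samples.

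Counts were divided here by DESeq2 1.42.0 size factors (1.24, 0.957, 1.13 and 0.778 for the miR-491-5p pull-down, its input, the control pull-down and its input). Standard errors are counting errors with 0.5 added to each count, and intervals span 1.96 of them on each side. No test was run, since each group holds 1 library. Alternatives were total counts, edgeR 4.0.16 TMM factors, a pseudocount of 5, and count minimums of 10 and 200. The ratios and intervals were tested on simulated counts that held counting error only. The limit for a call was lower there than the 2-fold used here, so calls at 2-fold were not checked.

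Genes were named by position against RefSeq GRCh38.p14. A host gene needed 1 end within 100 bp and the largest overlap. Other genes needed both ends within 20 bp, or an overlap of at least 0.4 of the joint span (0.2 more than the runner-up, ends at most 2000 bp apart at one side), or one shared end (within 20 bp, for noncoding genes with an overlap of 0.1), and RefSeq genes under 300 bp were matched at both ends only. This named 11708 of 12662 tested genes. The host genes, the gene lists and the rule for named genes were chosen with earlier results of these data known. The rule took the 10 host genes, nested snoRNAs that met the count minimum, the 5 genes nearest to SNHG6 and to the mean of the 10, and the highest and lowest gene of a list, and other names were chosen after their values were seen. Some genes that the rule names are not reported here.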

Additional observations from a re-analysis of the deposited data

Results flagged for a closer look

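SNHG6 was the only 1 of the 10 host genes that lay below its input with miR-491-5p and above it with the control, with both counting intervals excluding 0. Its log2 ratio of pull-down to input was -1.14 on miR-491-5p beads and 2.19 on control beads, a difference of -3.33. The difference was not tested, as each group has 1 library, and the control ratio is the value by which the set was chosen. The other 9 host genes differed between the 2 kinds of beads by -0.44 (SNHG7) to 0.29 (SNHG15).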

How the results depend on the processing

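No paired analysis was possible because each group holds 1 library. All 50 ratios of the 10 host genes stayed within their counting interval with TMM factors and with a pseudocount of 5 (a count minimum cannot move them, as all 10 genes pass each), and 35 of 50 left it with total counts, where no called ratio changed sign. With total counts 1 host gene (SNHG5) was lower on the miR-491-5p beads in place of 3, and 0 in place of 1 on the control beads. SNORA73B had 3.60, 3.08 and -0.22 on the miR-491-5p beads, on the control beads and between the pull-downs. Over all genes total counts gave 888 enriched and 445 depleted in place of 565 and 673, which moved the share of enriched calls to 66.6% in place of 45.6%. Between the pull-downs they gave 522 higher and 263 lower in place of 316 and 402 (66.5% higher in place of 44.0%). On the miR-491-5p beads they gave 1284 higher and 130 lower in place of 676 and 628 (90.8% in place of 51.8%), and on the control beads 820 lower in place of 1268 and 62.6% of calls higher in place of 46.2%. The cause was not tested beyond the scaling itself.

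A count minimum of 10 brought in genes with few reads and gave 1094 enriched and 1137 depleted, 823 higher and 807 lower between the pull-downs, 409 higher and 366 lower between the inputs (in place of 92 and 65), 2098 higher on miR-491-5p beads (in place of 676) and 2480 on control beads (in place of 1090). A minimum of 200 left fewer genes and gave 355 enriched, 180 higher between the pull-downs, 30 higher and 23 lower between the inputs, 325 higher on miR-491-5p beads and 696 on control beads. Of the 26 nested small RNA genes 22 lie where the counting leaves out every read, so their zeros do not speak of depth. Depth limits the 3 with few reads, and the smallest count of a host gene was 336 reads (SNHG7, control input).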

Other observations

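Genes that overlap or adjoin the host genes had values of their own. GAS5-AS1, on the other strand at the 3′ end of GAS5 and sharing 42 bp of exon with it, had normalised counts of 149.6 on miR-491-5p beads and 47.0 in their input, against 91.5 on control beads and 39.8 in theirs. Its bead ratios were 1.65 and 1.18, both past 2-fold, where GAS5 had 0.00 and -0.21. ZBTB37, a zinc finger gene whose span overlaps that of GAS5 without shared exon, had ratios of -0.16 on the miR-491-5p beads and 0.48 on the control beads and an enrichment of -0.64. RCC1, which shares its start region with SNHG3 and hosts the same snoRNAs in longer isoforms, had -0.40 and -0.79, close to the -0.38 and -0.60 of SNHG3. SLC3A2, the heavy chain of amino acid transporters, starts 187 bp from SNHG1 on the other strand and had -0.55 and -0.81, where SNHG1 had -0.07 and 0.03.

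The nuclear RNAs listed as a check of the lysate were measured in every library. MALAT1 had 54770 normalised counts on miR-491-5p beads and 24337 in their input, against 48630 on control beads and 18636 in theirs, with bead ratios of 1.17 and 1.38. NEAT1 had ratios of 1.26 and 1.13, and RN7SK -1.79 and -2.26.

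Markers of other cell types were uneven between inputs. The 6 fibroblast markers summed to 62.3 normalised counts on miR-491-5p beads and 306 in their input, and to 60.4 on control beads and 777 in theirs. COL1A1, COL1A2, COL3A1 and PDGFRA were higher in the control input than in the miR-491-5p input. DCN was lower there (25.7 against 46.0), and LUM was level (10.3 against 10.4). DCN, LUM and PDGFRA did not meet the count minimum. The 5 leukocyte markers summed to 21.0 on miR-491-5p beads and 20.9 in their input, and to 16.0 on control beads and 70.7 in theirs, and none met the count minimum.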
